A study of Mus musculus with 2 samples.

Results

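Ribosome profiling of mouse spinal cord was used to follow 8 genes of the oligodendrocyte lineage: Pdgfra, Cspg4, Ptprz1, Gpr17, Bcas1, Olig1, Olig2 and Sox10. They were chosen by Ensembl identifier, each identifier being paired with its symbol in the definition of the set, and all 8 were found among the 12530 genes listed in both deposited tables. Ribosome profiling sequences the short mRNA fragments that ribosomes shield from a nuclease. There were 2 libraries, 1 from wild-type mice and 1 from mice carrying a single C201R allele of Gars (GarsC201R/+), the gene for the enzyme that charges tRNA with glycine. Each library came from spinal cord lysates of 3 animals, pooled before the library was made. No age, sex or strain is given in the sources used here, and no treatment is named for either group.

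Oligodendrocytes are the myelin-forming cells of the central nervous system, and they arise from precursor cells that persist and keep dividing in the adult spinal cord. Precursors are known by the surface proteins PDGFRα and NG2, the products of Pdgfra and Cspg4. As they differentiate they pass through a short premyelinating stage, for which Gpr17 and Bcas1 are used as markers, before they make myelin. Olig1, Olig2 and Sox10 encode transcription factors that are present across the lineage, from precursor to mature cell.

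Gene reads totalled 7770935 for wild type and 3491159 for GarsC201R/+. All 8 lineage genes had the 100 reads over both libraries that were required for comparison, with 304 to 4099 wild-type reads and 163 to 2197 heterozygous reads. With 1 library per genotype there was no residual variation to test against, so no p-value between genotypes was computed. All intervals below are at 95% and take in counting error alone, with no allowance for differences among animals, pools or library preparations. Reads may not be independent molecules. In whole tissue, fewer cells of a type and less RNA per cell cannot be told apart. Without an RNA library, mRNA amount and translation cannot be told apart either. Markers of other cell types could not be matched to identifiers here, so the cell make-up of the lysates was not analysed here.

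Per length, the lineage genes spanned more than an order of magnitude. The transcription factors Olig1 and Sox10 and the premyelinating gene Bcas1 were at the top. The precursor genes Pdgfra and Cspg4 and the premyelinating gene Gpr17 were at the bottom. Levels between genes are given as RPKM, the deposited reads scaled to gene length and to library depth. The lengths behind these values ran from 2162 nt for Olig1 to 8121 nt for Cspg4. How much of each length is coding sequence is not given in the sources used here. The order and span of the levels, and shares of RPKM, depend on these lengths. Olig1 was the highest in both libraries, with a wild-type level of 243 RPKM (interval 236 to 251) and a heterozygous level of 289 RPKM (277 to 301). In the wild-type library 98.2% of all listed genes were below it. The highest member exceeded the lowest by 37.2-fold among wild-type values and by 32.4-fold among heterozygous values. The median over all listed genes was 8.40 RPKM and 8.63 RPKM respectively. In the wild-type library 6 of the 8 genes lay above that median. Gpr17 and Cspg4 lay below it, Gpr17 by less than its counting error. In the heterozygous library all 8 lay above the median, Gpr17 again by less than its counting error.

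The order of the genes in the wild-type library, from high to low RPKM, was Olig1, Sox10, Bcas1, Ptprz1, Olig2, Pdgfra, Gpr17 and Cspg4. Only the last neighbours, Gpr17 at 7.51 RPKM (6.69 to 8.41) and Cspg4 at 6.54 RPKM (5.93 to 7.21), had overlapping intervals. In the heterozygous library the order was Olig1, Bcas1, Sox10, Olig2, Ptprz1, Pdgfra, Cspg4 and Gpr17. Here Bcas1 and Sox10 overlapped, and so did Pdgfra with Cspg4 and Cspg4 with Gpr17. Olig2 and Ptprz1 changed places beyond counting error. Olig2 stood below Ptprz1 in the wild-type library, at 29.5 against 41.4 RPKM, and above it in the heterozygous library, at 62.3 against 38.2 RPKM.

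**Figure D1:**
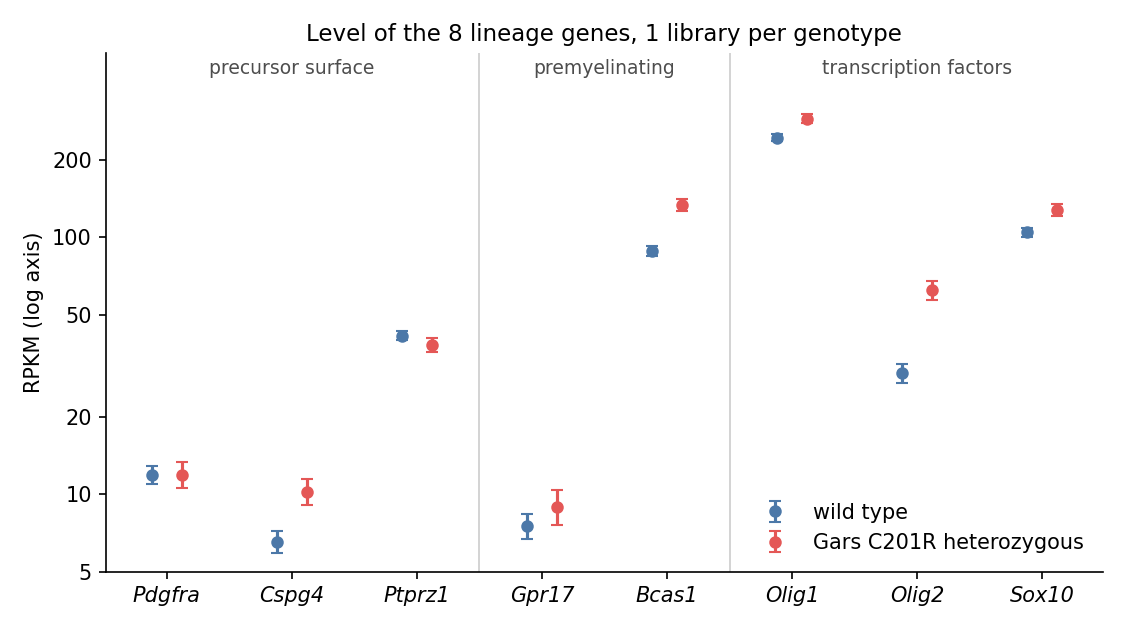
RPKM of the 8 lineage genes (log axis) in the wild-type library (blue) and the heterozygous library (red), grouped by role, with 1 library per genotype. Bars are exact Poisson 95% intervals of the reads. The largest step between libraries is at Olig2, from 29.5 to 62.3 RPKM, while the Pdgfra points lie side by side at 11.9 RPKM.

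Between the libraries, Olig2 and Cspg4 were higher in the heterozygous library, Bcas1 came close to the same limit, and the other 5 genes differed by 1.18-fold or less in either direction. Ratios divide the heterozygous by the wild-type level after TMM scaling of the gene reads. Calling a gene took a difference of 1.5-fold or more with a counting interval clear of equal levels. By this rule 2 of the 8 genes were higher, against 8.14% of the 9726 genes compared, and 0 were lower, against 11.2%. Among the 4477 genes with read totals in the range of the 8, 467 to 6296, the rule called 3.93% higher and 7.82% lower. Without the fold limit, the interval lay above equal levels for 5 of the 8 genes (Olig2, Cspg4, Bcas1, Sox10 and Olig1), against 23.7% of all genes compared. It lay below them for 1, Ptprz1, against 28.2%, and it included them for Pdgfra and Gpr17. The median log2 ratio of the 8 genes was 0.22, against -0.034 over all genes compared. Their reads together made up 0.166% of wild-type and 0.206% of heterozygous gene reads, for a log2 ratio of 0.26 (0.21 to 0.30). Without Olig2 this was 0.21 (0.16 to 0.25). The log2 ratios of the 8 genes had an SD of 0.38, and those of the 4477 genes in the same range of reads had an SD of 0.39.

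**Figure D2:**
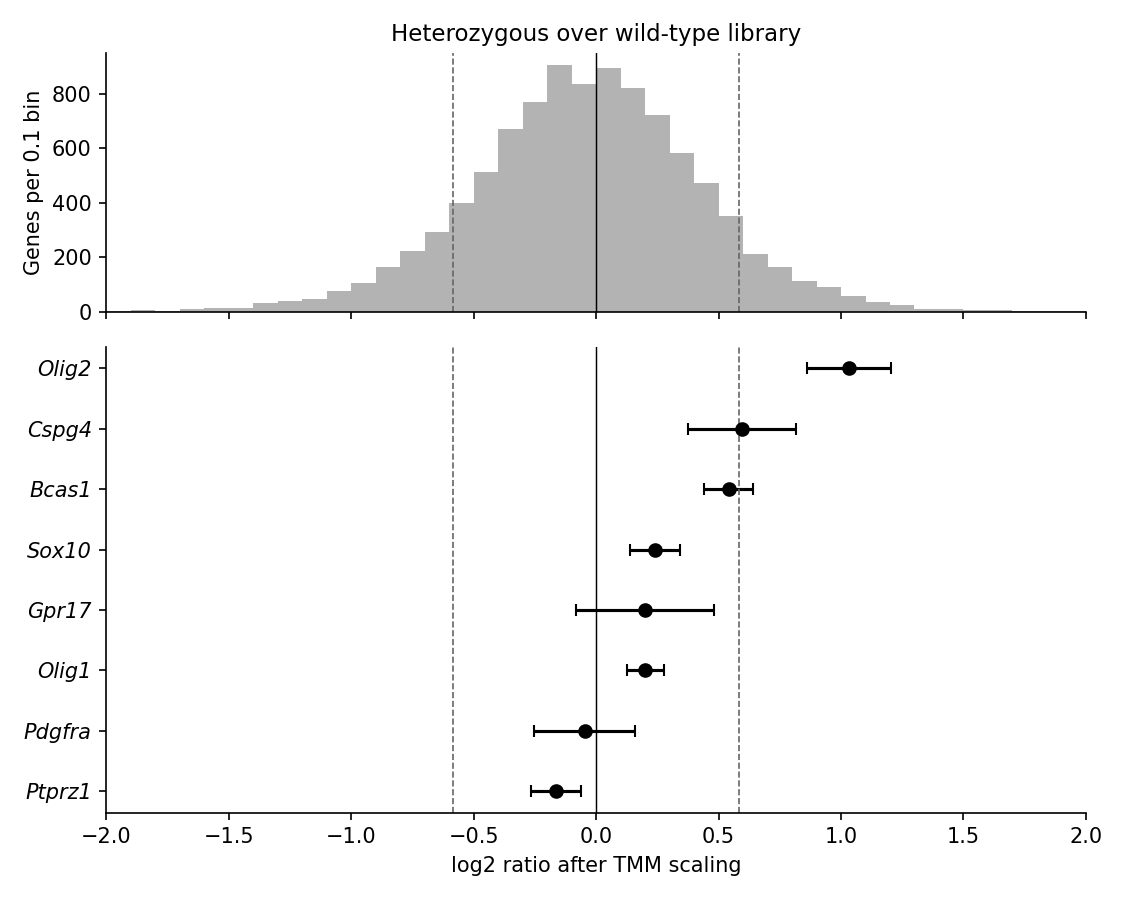
Upper panel, log2 ratios (heterozygous over wild type) for the 9726 genes compared, in bins of 0.1, leaving out the 25 genes beyond 2 in size. Lower panel, the 8 lineage genes with exact 95% counting intervals, with dashed lines at 1.5-fold. Olig2, at 1.03, stands clear of the upper line, and the Cspg4 and Bcas1 intervals include it.

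Olig2 showed the largest difference among the transcription factors, and among all 8 genes. It encodes a basic helix-loop-helix factor needed to specify oligodendrocyte precursors and, in the embryonic cord, motor neurons. Olig2 (ENSMUSG00000039830) gave 582 reads (interval 536 to 631) in wild type and 555 reads (510 to 603) in the heterozygote, although the wild-type library was the deeper by 2.21-fold. This gave a log2 ratio of 1.03 (0.86 to 1.2) and a 2.04-fold difference (1.82 to 2.30). Of the 9726 genes compared, 146 (1.5%) had a higher ratio. Among the 973 genes with similar read totals, 819 to 1213 reads, 0.411% had a higher ratio and 4.11% were called higher.

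Olig1, its relative and genomic neighbour, did not share the size of that difference. Olig1 is better known for its role in later differentiation and repair of myelin. The reads of Olig1 (ENSMUSG00000046160) were 4099 for wild type and 2197 for the heterozygote, a log2 ratio of 0.20 (0.13 to 0.28). On GRCm38, RefSeq places Olig2 at chr16:91225550-91228677 and Olig1 at chr16:91269769-91271939, 41.1 kb apart with no other listed gene lying wholly between them. Per length, Olig1 exceeded Olig2 by 8.24-fold in the wild-type library and by 4.63-fold in the heterozygous library. The change in the Olig2 to Olig1 ratio was 1.78-fold (1.56 to 2.02), a value that does not depend on how the libraries are scaled.

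Sox10 encodes an HMG-box factor that activates myelin genes in oligodendrocytes and is also made by Schwann cells. Sox10 (ENSMUSG00000033006) gave 2211 wild-type and 1218 heterozygous reads, or 105 and 128 RPKM. The log2 ratio was 0.24 (0.14 to 0.34). Sox10 and Olig1 thus had small differences of similar size. The ratio between them changed by 1.03-fold (0.941 to 1.12), an interval that includes no change.

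Of the 3 surface genes of precursors, Cspg4 parted from the others, while the ratio of Pdgfra to Ptprz1 changed by 1.08-fold (0.924 to 1.27), an interval that includes no change. Cspg4 encodes the NG2 proteoglycan, which pericytes carry as well as precursors. Cspg4 (ENSMUSG00000032911) gave 414 wild-type reads (375 to 456) and 292 heterozygous reads (259 to 327). The log2 ratio was 0.60 (0.38 to 0.82), or 1.51-fold, just past the limit, and 7.75% of the genes compared had a higher ratio. Pdgfra encodes the receptor for the mitogen PDGF-A, on which precursor division and survival depend. Pdgfra (ENSMUSG00000029231) gave 633 wild-type and 286 heterozygous reads, equal to 11.9 RPKM in each library, and a log2 ratio of -0.045 (-0.25 to 0.16). As a ratio this was 0.969 (0.840 to 1.12), so differences beyond those bounds lie outside the counting error. The sign of the Pdgfra ratio depended on the processing, and under scalings to gene reads or thinning of the wild-type library its log2 value ran from -0.047 to 0.080.

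Ptprz1 encodes a receptor-type tyrosine phosphatase with chondroitin sulfate chains, made by precursors and also by astrocytes. It was the only lineage gene with an interval below equal levels. Ptprz1 (ENSMUSG00000068748) gave 2603 wild-type and 1084 heterozygous reads. The log2 ratio was -0.16 (-0.27 to -0.060). In RPKM the levels were 41.4 and 38.2. This 1.12-fold difference is small beside the spread of well covered genes, since 40.2% of the 973 genes with 2152 or more reads had a lower ratio still. The 2 genes most often used to recognise precursors, Cspg4 and Pdgfra, thus differed from each other, and the ratio of Cspg4 to Pdgfra reads changed by 1.56-fold (1.27 to 1.93).

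The premyelinating genes differed in level by more than in ratio. The product of Bcas1 (ENSMUSG00000013523) marks oligodendrocytes that are beginning to form myelin. Bcas1 gave 2039 wild-type reads (1951 to 2129) and 1384 heterozygous reads (1312 to 1459). The levels were 88.7 RPKM (84.9 to 92.6) and 133 RPKM (126 to 140). The log2 ratio was 0.54 (0.44 to 0.64), or 1.46-fold, just short of the limit. Among the 973 genes with 2152 or more reads, 2.06% had a higher ratio, and 1.13% were called higher. Scaled to total gene reads, or to the totals behind the RPKM values, Bcas1 passed the limit and 3 of the 8 genes were called higher. The share of all genes compared that were called higher rose as well, from 8.14% to 9.79% and 9.44% respectively.

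Gpr17 encodes an orphan-type G protein-coupled receptor that is switched on briefly as precursors commit to differentiate. Gpr17 (ENSMUSG00000052229) was the least covered of the 8 genes, with 304 wild-type reads (271 to 340) and 163 heterozygous reads (139 to 190). Its level was 7.51 and 8.91 RPKM. The log2 ratio of 0.20 (-0.082 to 0.48) could not be told from equal levels at this depth. The ratio of Bcas1 to Gpr17 reads changed by 1.27-fold (1.03 to 1.56).

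Shares within the lineage reads do not depend on library scaling. They are relative to the 8 genes together, so a share can fall while the level of a gene stays the same. After TMM scaling, the summed reads of the precursor surface genes had a log2 ratio of -0.034 (-0.12 to 0.050), which includes equal levels. The premyelinating genes had 0.50 (0.41 to 0.60) and the transcription factors 0.30 (0.25 to 0.36). The 3 precursor surface genes held 28.3% (Wilson interval 27.6% to 29.1%) of the wild-type reads of the 8 genes and 23.2% (22.2% to 24.1%) of their heterozygous reads. The 2 premyelinating genes held 18.2% (17.5% to 18.9%) and 21.5% (20.6% to 22.5%). This rise rested on Bcas1, which went from 15.8% to 19.3%, while Gpr17 held 2.36% and 2.27%. The 3 transcription factors held 53.5% (52.6% to 54.3%) and 55.3% (54.1% to 56.4%). The lower surface share rested mainly on Ptprz1, which went from 20.2% to 15.1%. Pdgfra went from 4.91% (4.55% to 5.30%) to 3.98% (3.56% to 4.46%), while Cspg4 went from 3.21% to 4.07%. The log2 ratio of Pdgfra itself, -0.045 (-0.25 to 0.16), included equal levels. The higher transcription factor share rested on Olig2, which went from 4.52% to 7.73%, while Olig1 and Sox10 held 31.8% and 17.2% against 30.6% and 17.0%. Long genes weigh more in shares of reads. In shares of RPKM the transcription factor group had the opposite sign, with a difference of -0.478 percentage points in place of 1.81. The surface genes differed by -2.37 points in place of -5.18. No counting interval was computed for shares of RPKM, so whether that change of sign exceeds counting error was not tested.

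**Figure D3:**
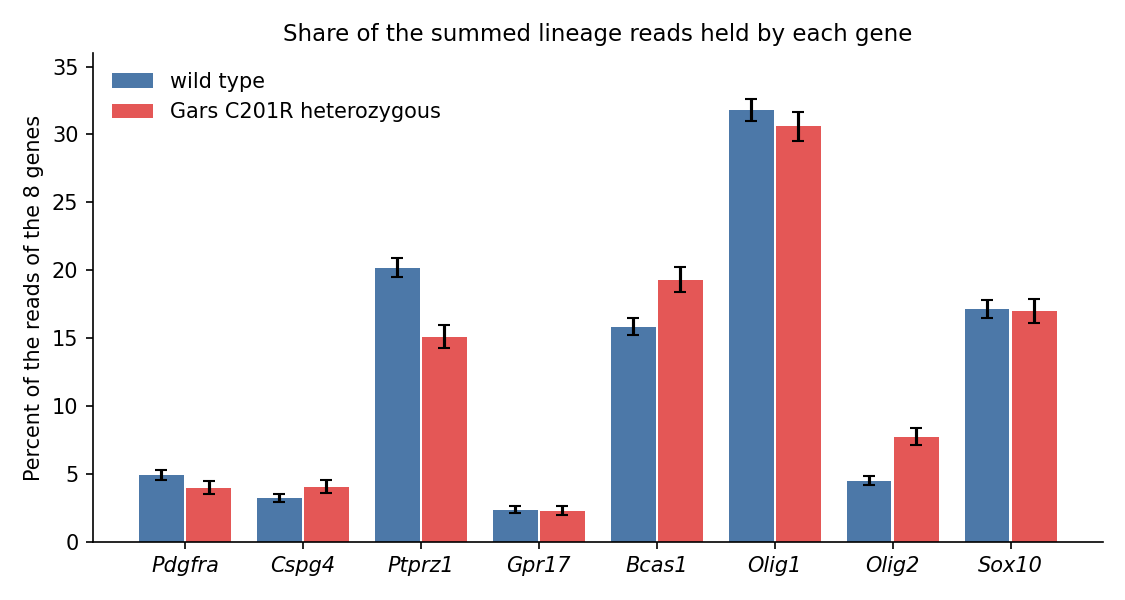
Percent of the summed reads of the 8 lineage genes held by each gene, in the wild-type (blue) and heterozygous (red) library, with Wilson 95% intervals. Olig2, Bcas1 and Cspg4 hold a larger share in the heterozygous library and Ptprz1 and Pdgfra a smaller one, while the intervals of Olig1, Sox10 and Gpr17 overlap. A smaller share need not be a lower level, and Pdgfra was at 11.9 RPKM in each library.

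Compared pair by pair, the changes of 1.5-fold or more mostly set Olig2, Cspg4 and Bcas1 against Ptprz1 and Pdgfra. Of the 28 pairs, 22 had a ratio that differed between the libraries beyond counting error, with intervals not adjusted for the number of pairs. In 9 pairs the change was also at least 1.5-fold, and 5 of these involved Olig2. The widest was Olig2 to Ptprz1, which changed by 2.29-fold (1.99 to 2.63). Next was Olig2 to Pdgfra, at 2.11-fold (1.75 to 2.54). Olig1, Sox10 and Gpr17 kept close to each other, with changes of 1.00-fold to 1.03-fold among them and intervals that include no change. The ratio of Cspg4 to Bcas1 changed by 1.04-fold (0.878 to 1.23), an interval that also includes no change. The 28 pairs restate the ratios of 8 genes, and pairs of other genes were not counted. The SD of the log2 ratios was 0.38 for the 8 genes and 0.39 for the 4477 genes in the same range of reads. By SD, a spread of this size was therefore not particular to the lineage genes. A robust SD, from the median absolute deviation, was 0.44 for the 8 genes and 0.36 for those 4477 genes. Over all genes compared it was 0.44. These differences in spread were not tested.

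**Figure D4:**
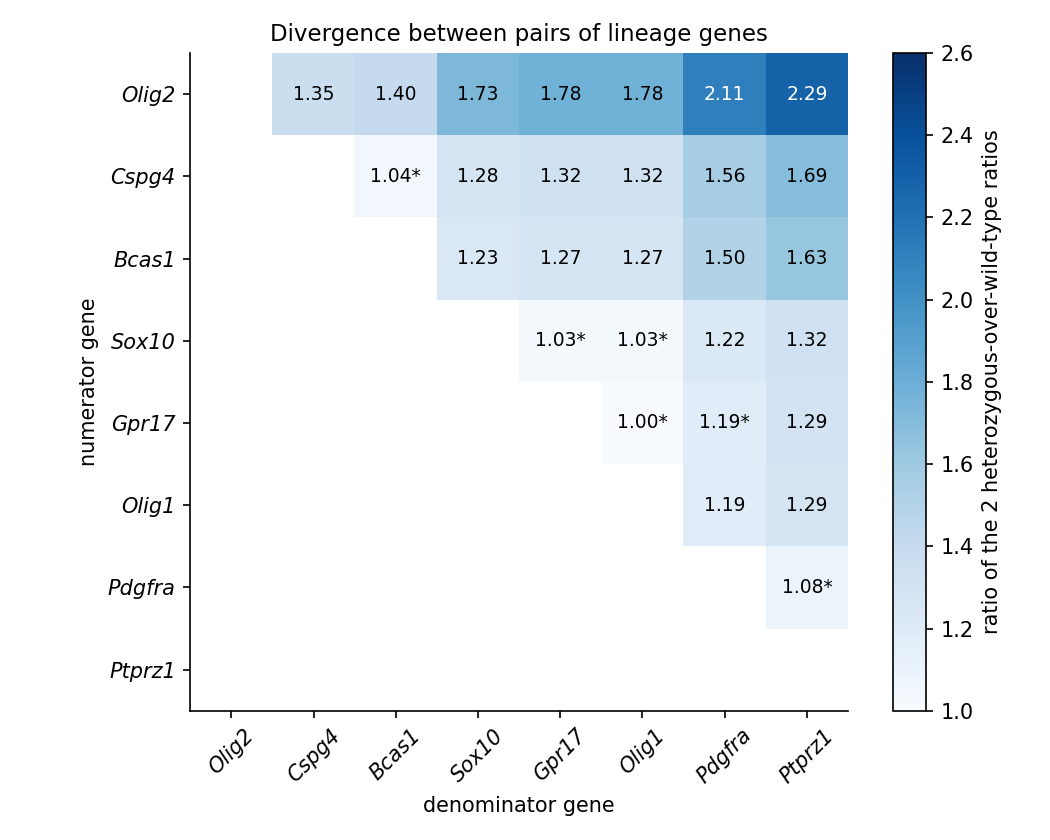
Change between libraries in the ratio of each pair of lineage genes, the row gene over the column gene, computed from reads without scaling. An asterisk marks the 6 pairs whose 95% counting interval includes no change. The top row, Olig2, runs from 1.35 to 2.29, and the block of Sox10, Gpr17 and Olig1 stays near 1.

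The upstream regions of Olig2 and Cspg4 are shown because these 2 genes passed the calling rule. The table of RefSeq promoters (GRCm38.p6) held 4 of the 8 genes, these 2 with Pdgfra and Ptprz1. The sequences are the 250 bases before the annotated start, plus strand, at chr16:91225300-91225549 for Olig2 and chr9:56864854-56865103 for Cspg4. Capitals mark letters that match a SOX-type motif (ACAANG, or CNTTGT on the other strand) or an E-box (CANNTG, which reads as CANNTG on both strands), the kind of element bound by helix-loop-helix factors.
Olig2: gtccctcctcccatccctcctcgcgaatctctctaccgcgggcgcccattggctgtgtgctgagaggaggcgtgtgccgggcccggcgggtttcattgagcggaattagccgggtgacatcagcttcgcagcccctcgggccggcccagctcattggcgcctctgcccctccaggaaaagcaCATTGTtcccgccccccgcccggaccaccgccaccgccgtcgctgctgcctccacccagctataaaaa
Cspg4: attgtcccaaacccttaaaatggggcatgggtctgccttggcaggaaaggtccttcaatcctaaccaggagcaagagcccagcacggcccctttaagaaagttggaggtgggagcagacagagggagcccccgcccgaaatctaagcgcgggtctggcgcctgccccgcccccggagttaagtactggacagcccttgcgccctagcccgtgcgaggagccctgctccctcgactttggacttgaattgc
The Olig2 window held 1 SOX-type match, CATTGT, beginning 68 bases before the start, and 0 E-boxes. The Cspg4 window held 0 of either. The Pdgfra window held 1 of each, and the Ptprz1 window held 0 of either. These 2 windows belong to starts inside the annotated genes. The Pdgfra window (chr5:75152001-75152250) lies wholly within the gene, which begins at 75151322, and the Ptprz1 window (chr6:22875252-22875501) runs past the gene start at 22875315. Among all 32851 promoter windows of this length, 66.2% held an E-box and 36.3% a SOX-type match. Matches of such short motifs are common, and their presence or absence in a window is a description of the letters only.

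All directions above are relative to the gene reads. The 18 ERCC spike-ins, synthetic RNAs used as external controls, made up 0.00669% of listed wild-type reads and 0.650% of listed heterozygous reads, and whether equal amounts were added is not given in the sources used here. Scaled to them, all 8 genes would be lower in the heterozygous library, as would every gene compared. The strand setting and the part of each gene that was counted are also not given, so reads from overlapping or antisense transcripts could not be told apart from reads of the genes named.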

How the data were processed

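Ribosome-protected fragments were measured in 2 spinal cord libraries, 1 per genotype. Per the submitters' processing notes, Bowtie 1.2.2, HTSeq 0.9.1 and GRCm38 were used. Each table, per the file headers, lists a count of reads and an RPKM per gene. The RPKM values deposited by the authors were reads scaled to gene length and library total, and were used for levels between genes. Counts were used as deposited for ratios.

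TMM factors came from edgeR 4.0.16 (R 4.3.3), computed over the 12530 genes, without the 18 spike-ins. Before taking log2 ratios, 0.5 counts were added to each library in proportion to its size. Ratios have Clopper-Pearson conditional intervals, counts exact Poisson intervals, shares Wilson intervals, and pairs of genes exact conditional odds ratio intervals, all at 95%. A call needed 100 reads over both libraries, an interval excluding equal levels and 1.5-fold. The code was tested on simulated data. Intervals were computed in Python 3.11.15 with scipy 1.17.1, and figures drawn with matplotlib 3.10.9.

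The 8 genes, the lists and the calling rule were chosen with earlier results of these data known. All 8 genes are named, in groups by role. The other lists, set by symbol, and protein features were not analysed here, because 0 identifiers matched the reference table and no protein table was used. Alternatives were other scalings (total count, DESeq2 1.42.0, upper quartile, RPKM totals, spike-ins, dropping genes that exceed 1% of either library), a prior count of 2, other read minimums, a 99% interval, other fold limits, thinning of the wild-type library and shares of RPKM.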

Additional observations from a re-analysis of the deposited data

Results flagged for a closer look

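The ERCC spike-ins, which lie outside the comparison of the lineage genes, made up 0.650% of the listed reads in the heterozygous library against 0.00669% in the wild-type library. No cause was tested.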

How the results depend on the processing

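Of 14 alternatives for the count of called lineage genes, 9 gave 2 higher and 0 lower. Total-count scaling and the totals behind the RPKM values gave 3 higher and 0 lower, adding Bcas1. Under them 9.79% and 9.44% of all genes compared were called higher, against 8.14% under TMM scaling. A 2-fold limit, which can only remove calls, left 1 higher, against 1.71% of all genes compared. No fold limit, which can only add calls, gave 5 higher and 1 lower, against 23.7% and 28.2%. Spike-in scaling shifts every gene by a common factor and gave 0 higher and 8 lower, a median log2 ratio of -6.34, and -5.53 for Olig2 and -5.96 for Cspg4. Under the other scalings, a prior count of 2 and thinning, the median stayed between 0.22 and 0.27, and Olig2 between 1.03 and 1.08. In shares of RPKM the surface genes differed by -2.37 percentage points in place of -5.18 (interval -6.42 to -3.92). The transcription factors differed by -0.478 in place of 1.81 (0.373 to 3.25). Long genes weigh less in shares of RPKM, for which no counting interval was computed. The direction for premyelinating genes and Olig2 held. Depth limits Gpr17 most, with 163 heterozygous reads. No paired analysis was possible because each genotype had 1 library, and no replicate could be left out.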
